A study of Homo sapiens with 21 samples.

Results

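Transcript levels of the secreted and membrane-bound matrix proteases and their inhibitors were followed in A673, a Ewing sarcoma line established in culture that carries the EWS/FLI fusion. The members were all protein-coding genes named MMP (matrix metalloprotease), ADAMTS (a disintegrin and metalloprotease with thrombospondin motifs) or TIMP (tissue inhibitor of metalloproteases) followed by a number. The count table held 44 of them, and the 41 that averaged 1 or more counts over the libraries were described, which were 18 MMP, 19 ADAMTS and 4 TIMP genes among 30549 genes of that level. MMP23B, MMP26 and MMP27 fell below this level, with no more than 2, 1 and 5 counts in any library. MMP12 and MMP28 were not analysed here.

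The 21 RNA-seq libraries formed 7 groups of 3. All cells received an shRNA by retrovirus on day 1, a second retrovirus on day 5 and selection until day 16 with puromycin at 2 µg/ml and hygromycin at 400 µg/ml. The control group iLuc carried an shRNA against luciferase and an empty vector and kept the endogenous fusion, and its difference from depleted cells is called endo-EF. The baseline group iEF carried an shRNA against EWS/FLI and an empty vector. The other 5 groups carried the iEF shRNA and a cDNA for a form of the fusion. WT-EF was the wildtype form and Δ22 lacked the EWS portion. DAF kept the full length but had alanine in place of tyrosines of the EWS repeats, mut9 was a form with much of EWS deleted, and DAF-mut9 carried tyrosine substitutions within the mut9 form. The count columns named mut9d were taken as DAF-mut9, the only sample title that holds both names, and each DAF-mut9 value depends on this reading. All groups came from a single cell line, and the libraries of a group are numbered 1 to 3. The study describes them as replicate sets of knockdown and rescue, so p-values measure the spread between such sets of this line.

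MMPs and ADAMTS proteases are zinc enzymes that are made as inactive precursors and cut collagens, proteoglycans and other parts of the extracellular matrix. Collagenases open fibrillar collagen, gelatinases digest the unwound product, stromelysins and matrilysin cut a broad range of matrix proteins, and membrane-type MMPs act at the cell surface. Among the ADAMTS enzymes, proteoglycanases cut aggrecan and versican, procollagen N-proteinases trim new collagen, and others cut cartilage oligomeric matrix protein (COMP) or von Willebrand factor. TIMPs bind the active sites of these enzymes and block them. EWS/FLI joins the disordered EWS region to the DNA-binding domain of FLI, and it activates some genes and represses others, many through repeats of the bases GGAA.

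Levels are in CPM (counts scaled to the normalized library size), and with library totals of 32.9 M to 46.2 M counts, 1 CPM stood for 32 to 45.2 counts. FLI1, whose reads include those of the fusion, was at 60.6 to 89 CPM in iLuc and at 20.02 to 21.1 CPM in iEF. In WT-EF, mut9, DAF, DAF-mut9 and Δ22 it was at 21.9 to 26.5 CPM, 28.3 to 33.4 CPM, 35.1 to 39.8 CPM, 34.6 to 37.3 CPM and 41.3 to 62 CPM, the cDNA included. These levels differed between the forms, and their part in the differences between forms was not tested. Of the Ewing sarcoma markers, NKX2-2, NR0B1 and STEAP1 were detected in each library. CD99 was listed under 2 identifiers, and the 1 that was read held no more than 8 counts in any library. The other was not read, so the level of CD99 was not determined here. Markers of other cell types were low, with PTPRC at no more than 0.871 CPM, EPCAM at no more than 0.576 CPM and MYOD1 at no more than 2 counts. In bulk RNA, fewer cells of a kind and less RNA per cell cannot be told apart. Exons of 16 members overlap a gene on the opposite strand, and since the strand setting of the counting is not stated, their values may hold reads of both genes. Among them are MMP1 and MMP3 with WTAPP1, MMP9 with SLC12A5-AS1, MMP19 with TMEM198B, MMP20 with MMP20-AS1, ADAMTS9 with ADAMTS9-AS1 and TIMP4 with SYN2.

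The iEF libraries, the baseline of 6 comparisons, differed among themselves in several members. Replicate 2 held the lowest level of the 3 libraries for 17 members and replicate 3 the highest for 18. MMP1 was at 3212, 769.7 and 3949 CPM in replicates 1 to 3, and MMP3 was at 30.8, 6.7 and 42.1 CPM. ADAMTS6 was at 25.4, 15.4 and 133 CPM, and MMP10 was at 192, 187 and 586 CPM. Replicate 2 was therefore low in MMP1 and MMP3, and replicate 3 was high in ADAMTS6 and MMP10.

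Scaled per kilobase of exon, the order of levels in iEF cells was led by MMP1, the interstitial collagenase, at 965 ± 608 CPM per kilobase (SD, n = 3). MMP10, a stromelysin, followed at 183 ± 130.1, TIMP1 at 126 ± 37.8, the membrane-type MMP14 at 72.3 ± 6.18 and the gelatinase MMP2 at 32.9 ± 7.19 CPM per kilobase. TIMP2 was at 23 ± 4.81 and TIMP3 at 20.7 ± 15.1 CPM per kilobase. The ranges of mean ± SD of MMP10 and TIMP1 overlapped, as did those of MMP2, TIMP2 and TIMP3, while that of MMP1 lay above that of MMP10. MMP1 led the order in all 7 groups, and in iLuc cells it stood at 175 ± 72.5 CPM per kilobase. In iEF 32 of the 41 members reached a mean of 1 CPM, in iLuc 24. ADAMTS8, ADAMTS17, ADAMTS18, ADAMTS19, MMP7, MMP20, MMP21 and MMP25 did not reach it in any group, and their fold changes rest on few counts.

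The first comparison asked what the endogenous fusion does to these genes. In iLuc cells, 34 of the 41 members were lower than in iEF cells and 0 were higher in edgeR's quasi-likelihood test (p-values adjusted by Benjamini-Hochberg over all genes, threshold 0.05). Of all genes tested, 41.1% were called and 22.4% were called lower. The median log2 fold change of the members was -2.40, against 0.00608 for all genes, and stood at -2.37 with ADAMTS19, which had no count in iLuc, set to its floor of 3 counts over the group. Lower calls took in 17 of 19 ADAMTS, 14 of 18 MMP and 3 of 4 TIMP genes. For MMP21, which was not called and stayed under 1 CPM, every iLuc library lay above every iEF library. The 7 members without a call were ADAMTS10, ADAMTS13, MMP9, MMP11, MMP21, MMP25 and TIMP4.

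**Figure D1:**
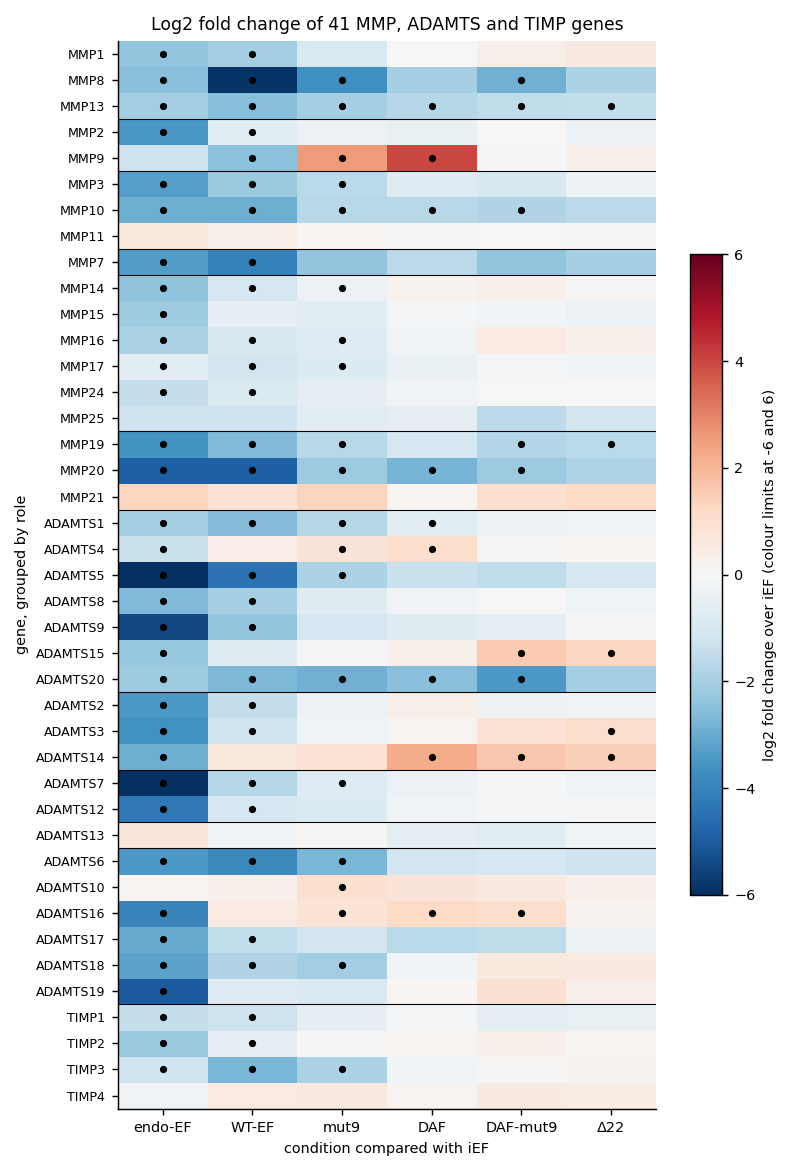
Colour gives the log2 fold change over iEF of each of the 41 members (rows, grouped by role) in 6 comparisons (columns), and a black dot marks an adjusted p under 0.05. The endo-EF column has dots in 34 rows, all blue, the WT-EF column has 29 dots, and those of mut9, DAF, DAF-mut9 and Δ22 have 20, 9, 9 and 5.

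Both ADAMTS that cut COMP fell. ADAMTS7 (ENSG00000136378, chr15:79051548-79103806, GRCh37, minus strand) was at 11.7, 13.1 and 17.5 CPM in iEF and at 0.0257, 0.133 and 0.0251 CPM in iLuc. Every iLuc library was far under every iEF library, and the fitted difference was the largest among members with at least 1 CPM (log2 fold change -7.71, SE 0.36, adjusted p = 1.03e-12). ADAMTS12 was at 2.1, 3.07 and 3.76 CPM in iEF and at 0.128, 0.221 and 0.1002 CPM in iLuc, again without overlap (log2 fold change -4.30, SE 0.41, adjusted p = 3.08e-08).

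All 7 proteoglycanases were lower in iLuc, with a median log2 fold change of -2.27. ADAMTS9 (ENSG00000163638, chr3:64501330-64673676, minus strand), which cuts versican and aggrecan, was at 50.7, 21.9 and 64.9 CPM in iEF and at 0.668, 1.39 and 1.03 CPM in iLuc (log2 fold change -5.41, SE 0.46, adjusted p = 6.3e-09). Even its lowest iEF library lay above the highest iLuc library. ADAMTS5, a major aggrecanase, held 116, 10 and 125 counts in the iEF libraries and 0, 0 and 1 in the iLuc libraries. Its fitted value (-7.40, SE 1.02, adjusted p = 4.67e-06) depends on the prior count, and the ratio of summed levels was 279-fold lower in iLuc with an exact 95% interval of 49.5 to 11046, which covers counting error only. ADAMTS20 was called too (-2.15, SE 0.56, adjusted p = 0.00365), but without iEF replicate 3 it was at -0.96 with an adjusted p of 0.187.

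The 3 procollagen N-proteinases fell as well. ADAMTS3 was at 10.01, 4.91 and 10.3 CPM in iEF and at 0.771, 0.685 and 0.501 CPM in iLuc (log2 fold change -3.64, SE 0.30, adjusted p = 3.63e-09). ADAMTS2 was at 1.61, 1.63 and 1.22 CPM and 0.18, 0.0884 and 0.15 CPM (log2 fold change -3.44, SE 0.47, adjusted p = 4.24e-06), and the groups did not overlap for either gene. ADAMTS14 was at 3.29, 2.06 and 1.54 CPM in iEF and at 0.128, 0.133 and 0.651 CPM in iLuc (log2 fold change -2.92, SE 0.45, adjusted p = 2.03e-05), with iLuc replicate 3 above the other iLuc libraries but under each iEF library.

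Among the remaining ADAMTS genes, ADAMTS16 was at 5.2, 13.3 and 4.76 CPM in iEF and at 0.385, 0.553 and 0.451 CPM in iLuc (log2 fold change -3.96, SE 0.34, adjusted p = 6.17e-09). ADAMTS6, which acts on fibrillin-rich microfibrils, was at 4.29, 5.97 and 3.16 CPM in iLuc, below all iEF libraries given above (log2 fold change -3.43, SE 0.51, adjusted p = 1.3e-05). ADAMTS18 held 31 counts over iEF and 3 over iLuc, a ratio of 11.5 with an exact interval of 3.58 to 58.6. ADAMTS19 held 2, 6 and 3 counts in iEF and 0 in each iLuc library. With iLuc set to a floor of 3 counts over the group it was 4.07-fold lower there, and the lower end of its exact 95% interval was 2.79-fold. ADAMTS13, the protease of von Willebrand factor, was at 0.607, 1.13 and 0.757 CPM in iEF and at 1.39, 2.23 and 0.626 CPM in iLuc, and its groups overlapped (log2 fold change 0.74, SE 0.39, adjusted p = 0.143).

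Of the gelatinases, MMP2 was called and MMP9 was not. MMP2 (ENSG00000087245, chr16:55423612-55540603, plus strand) was at 175, 174 and 116 CPM in iEF and at 12.1, 16.8 and 11.9 CPM in iLuc (log2 fold change -3.51, SE 0.22, adjusted p = 8.21e-11). MMP9 (ENSG00000100985, chr20:44637547-44645200, plus strand) was at 6.09, 6.76 and 7.73 CPM in iEF and at 3.49, 3.09 and 2.25 CPM in iLuc. Its 3 iLuc libraries also lay under the iEF libraries, but the difference did not pass the test (log2 fold change -1.24, SE 0.52, adjusted p = 0.0641).

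Of the 6 membrane-type MMPs, 5 were lower in iLuc. MMP14, which activates the MMP2 precursor at the cell surface, was at 358, 343 and 303 CPM in iEF and at 59.1, 80.4 and 51.7 CPM in iLuc (log2 fold change -2.40, SE 0.12, adjusted p = 3.3e-12). MMP15, MMP16 and MMP24 had log2 fold changes of -2.12, -1.90 and -1.45. MMP17 had the smallest called difference among the members (-0.68, SE 0.22, adjusted p = 0.0166), and its call was lost without iEF replicate 1 (-0.49, adjusted p = 0.117) and without iLuc replicate 1 (-0.48, adjusted p = 0.112). MMP19, a protease outside these classes, was at 9.2, 11.2 and 25.1 CPM in iEF and at 1.49, 1.19 and 0.877 CPM in iLuc (log2 fold change -3.60, SE 0.37, adjusted p = 9.73e-08). Stromelysin MMP11 was at 1.31, 1.25 and 0.784 CPM and 1.64, 2.65 and 1.05 CPM, with overlapping groups (log2 fold change 0.63, SE 0.31, adjusted p = 0.117).

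A group of MMPs on chromosome 11 lies side by side, and 7 of them passed the count level, between positions 102391239 and 102826461 of GRCh37. They are the collagenases MMP1, MMP8 and MMP13, the stromelysins MMP3 and MMP10, matrilysin (MMP7) and enamelysin (MMP20). All 7 were lower in iLuc than in iEF and all 7 were lower in WT-EF, with median log2 fold changes of -2.92 and -2.91. In mut9, 5 of the 7 were called lower, in DAF 3, in DAF-mut9 4 and in Δ22 1, and 0 were higher in any of these, where 8.33%, 4.02%, 2.14% and 1.79% of all genes were called lower. Without iEF replicate 3 these counts were 3, 1, 0 and 0, while they stayed at 7 in iLuc and at 7 in WT-EF. Without iEF replicate 1 they were 3, 3, 2 and 2. MMP1 was at 701, 320.3 and 413 CPM in iLuc, all below the lowest iEF library (log2 fold change -2.37, SE 0.36, adjusted p = 1.42e-05). MMP10 was at 56.6, 67.5 and 19.3 CPM (log2 fold change -2.92, SE 0.49, adjusted p = 5.83e-05), and MMP3 at 2.00, 1.3 and 4.48 CPM (log2 fold change -3.29, SE 0.47, adjusted p = 8.26e-06), and neither overlapped with iEF.

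MMP13 was at 3.71, 11.2 and 5.81 CPM in iEF and at 2.05, 2.08 and 0.952 CPM in iLuc (log2 fold change -2.07, SE 0.36, adjusted p = 7.19e-05). It was called lower in the other 5 comparisons with iEF too, but in DAF-mut9 (-1.51, SE 0.35, adjusted p = 0.0191) the call was lost without iEF replicate 2 (-1.03, adjusted p = 0.12), iEF replicate 3 (-1.44, adjusted p = 0.0877) or any of DAF-mut9 replicates 1, 2 and 3 (-1.61 to -1.36), and its Δ22 call is described below. MMP8 was at 14.5, 0.594 and 7.67 CPM in iEF, at 0.976, 1.57 and 0.702 CPM in iLuc and at 0.144, 0 and 0.196 CPM in WT-EF. The low iEF replicate 2 overlapped with iLuc, where the call (-2.53, SE 0.71, adjusted p = 0.00666) was lost without iEF replicate 1 (-1.79, adjusted p = 0.0762) and without iLuc replicate 1 (-2.15, adjusted p = 0.0506). WT-EF lay below every iEF library (log2 fold change -5.88, SE 0.91, adjusted p = 4.12e-05). MMP7 stayed under 1.32 CPM in each library and was called lower in iLuc (-3.37, SE 0.89, adjusted p = 0.00409), but not without iEF replicate 2 (-2.40, adjusted p = 0.0508). MMP20 held 72 counts over iEF and 2 over iLuc, a ratio of 39.95 with an exact interval of 10.7 to 336.

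**Figure D2:**
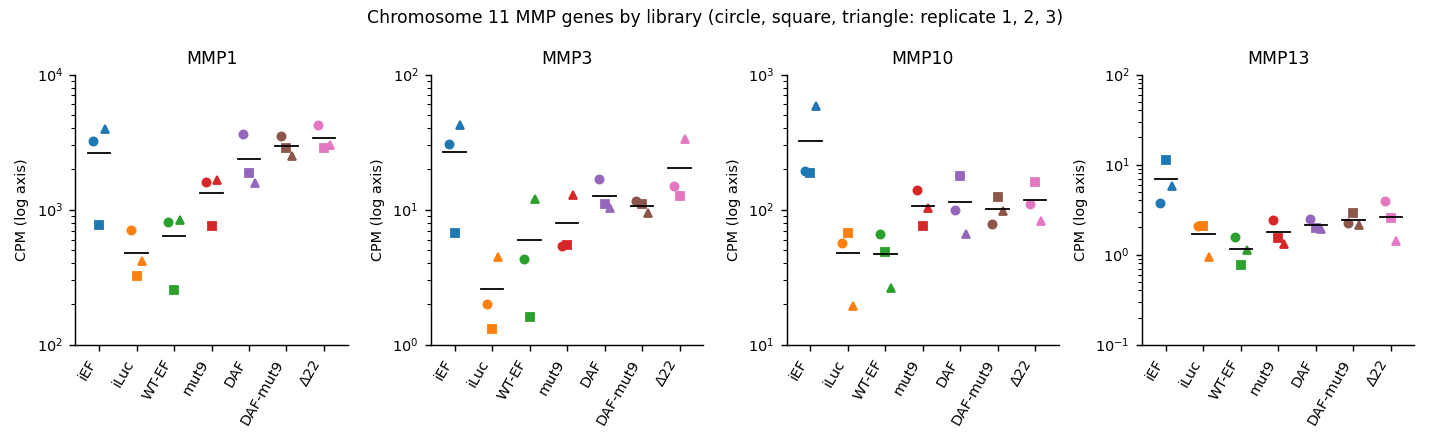
Each point is a library, on a log axis of CPM, for 4 MMP genes of chromosome 11 in the 7 groups, and each line is the mean of 3 libraries. The iEF libraries spread widely (MMP1 from 769.7 to 3949 CPM), and the iLuc and WT-EF means lie below the iEF mean in each panel.

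Promoter sequence is shown because AP-1, a transcription factor, is a known regulator of several MMP genes. Its usual site is TGAGTCA or TGACTCA. The motif searched, TGANTCA, takes any middle base and is wider than that site. RefSeq promoter windows of GRCh38.p14, from 250 bases before to 50 after the start site, were matched by symbol for 24 of the 41 members. The other 17 had no window and were not searched, among them MMP1, MMP2, MMP3, MMP9 and MMP13. TGANTCA, a palindrome apart from its middle base, was searched on both strands and occurred in 7.76% of 27305 promoters of this length. Among the matched members it stood in those of MMP7, MMP10, MMP20 and ADAMTS12. It read TGAGTCA in MMP7. In MMP10, MMP20 and ADAMTS12 it read TGAATCA, which is not the usual AP-1 site. The 100 bases before the start site are shown for the 3 of these with the motif inside them, 5′ to 3′ on the gene's strand, with the motif in capitals.
MMP7 (chr11:102530748-102530847, GRCh38.p14, minus strand): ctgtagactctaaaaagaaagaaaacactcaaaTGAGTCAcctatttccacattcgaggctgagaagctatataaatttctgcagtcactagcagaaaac
MMP10 (chr11:102780629-102780728, GRCh38.p14, minus strand): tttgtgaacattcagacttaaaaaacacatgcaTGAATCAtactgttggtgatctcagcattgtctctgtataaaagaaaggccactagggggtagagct
ADAMTS12 (chr5:33891991-33892090, GRCh38.p14, minus strand): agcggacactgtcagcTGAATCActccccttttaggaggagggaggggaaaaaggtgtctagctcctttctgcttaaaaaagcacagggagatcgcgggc
In MMP7 and in MMP10 the motif begins 67 bases before the start site, and in ADAMTS12 it begins 84 bases before it. These matches are descriptions of the letters and do not show binding.

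A pair of adjoining GGAA units (GGAAGGAA, both strands) was searched in the same windows because EWS/FLI binds repeats of GGAA. The repeats the study deals with are microsatellites of many units. A pair alone is not such a microsatellite and does not show binding. The pair occurred in 3.58% of promoters and in those of MMP14 and TIMP1 among the matched members, with no overlap with TGANTCA. The ETS motif CCGGAAGT occurred in 4.44% of promoters and in 0 of the 24. The 60 bases around each pair are shown with the pair in capitals.
MMP14 (chr14:22836419-22836478, GRCh38.p14, plus strand): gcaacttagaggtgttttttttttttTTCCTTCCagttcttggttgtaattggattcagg
TIMP1 (chrX:47582186-47582245, GRCh38.p14, plus strand): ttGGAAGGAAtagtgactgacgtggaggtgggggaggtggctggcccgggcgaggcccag
In MMP14 the pair lies on the opposite strand and begins 140 bases before the start site, and in TIMP1 it begins 248 bases before it.

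Rescue with full-length fusion was compared with iEF and, directly, with iLuc. In WT-EF, 29 of the 41 members were lower than in iEF and 0 were higher, where 28.3% of all genes were called and 16.9% called lower. The members' median was -1.24, against -0.00246 for all genes. The comparisons with iEF share the iEF libraries, so values of each comparison are given side by side and no overlap between them is counted. The largest differences with at least 1 CPM were those of MMP8, given above, ADAMTS5 and ADAMTS6. ADAMTS5 held 7, 0 and 4 counts in WT-EF (log2 fold change -4.43, SE 0.72, adjusted p = 7.52e-05). ADAMTS6 was at 3.7, 2.73 and 3.83 CPM, with no library reaching the iEF levels (log2 fold change -3.89, SE 0.52, adjusted p = 6.73e-06). With no replicate block, ADAMTS12 (-0.90, adjusted p = 0.111) and ADAMTS18 (-1.83, adjusted p = 0.0562) were not called.

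Set against iLuc directly, WT-EF cells held higher levels of 15 members and lower levels of 3, where 18.3% of all genes were called, 9.78% higher and 8.52% lower. Over the members the median was 0.68, against 0.0186 for all genes. ADAMTS7 was at 3.65, 4.74 and 4.45 CPM in WT-EF, between the iEF and iLuc levels (log2 fold change 5.99, SE 0.37, adjusted p = 4.75e-10 over iLuc). ADAMTS16 was at 8.96, 15.8 and 7.02 CPM, which overlapped with iEF and lay far above iLuc (log2 fold change 4.46, SE 0.34, adjusted p = 9.09e-09). ADAMTS14 was at 3.65, 2.52 and 4.59 CPM, again within or above the iEF range (log2 fold change 3.56, SE 0.44, adjusted p = 6.12e-06). MMP2 at 90.7, 121 and 89 CPM and MMP14 at 181, 168 and 157 CPM likewise lay above iLuc, with log2 fold changes of 2.88 (SE 0.22) and 1.42 (SE 0.12). None of the 7 chromosome 11 MMPs was higher than in iLuc, and MMP8 was lower (log2 fold change -3.35, SE 0.96, adjusted p = 0.0182). That call was lost without iLuc replicate 2 (-2.60, adjusted p = 0.11), WT-EF replicate 1 (-3.29, adjusted p = 0.081) or WT-EF replicate 2 (-2.84, adjusted p = 0.0806). ADAMTS1 was not called with no replicate block (-0.63, adjusted p = 0.118).

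In cells with the shortened form mut9, 16 members were lower and 4 higher than in iEF, with 14.6% of all genes called, 6.22% higher and 8.33% lower. Their median log2 fold change was -0.77, against 0.0219 for all genes. The count of 20 fell to 13 without iEF replicate 1, to 9 without iEF replicate 3, to 10 without mut9 replicate 1 and to 11 without mut9 replicate 2. MMP8 was at 0.462, 0.221 and 0.902 CPM (log2 fold change -3.69, SE 0.75, adjusted p = 0.0017), overlapping with iEF replicate 2. ADAMTS6 was at 8.92, 4.25 and 9.74 CPM, under every iEF library (log2 fold change -2.75, SE 0.49, adjusted p = 4.29e-04). ADAMTS20 was at 0.56, 0.282 and 3.22 CPM in iEF and at 0.116, 0.147 and 0.174 CPM in mut9 (log2 fold change -2.88, SE 0.61, adjusted p = 0.0023), and without the high iEF replicate 3 its call was lost (-1.74, adjusted p = 0.0602). The 4 higher members were MMP9, ADAMTS4, ADAMTS10 and ADAMTS16, of which ADAMTS10 (0.97, SE 0.26, adjusted p = 0.0123) lost its call without iEF replicate 3 (0.74, adjusted p = 0.0986) or mut9 replicate 1 (0.89, adjusted p = 0.0515). MMP10 (-1.68, SE 0.46, adjusted p = 0.0167) lost its call without iEF replicate 3 (-0.56, adjusted p = 0.393) or mut9 replicate 2 (-1.41, adjusted p = 0.0998). MMP9 rose to 43.4, 25.3 and 44.7 CPM, above every iEF library (log2 fold change 2.54, SE 0.50, adjusted p = 0.0013). ADAMTS4, an aggrecanase, was at 54.3, 75.2 and 51.1 CPM in iEF and 109.7, 88.4 and 106 CPM in mut9 (log2 fold change 0.77, SE 0.20, adjusted p = 0.0108), a call lost without iEF replicate 3 (0.62, adjusted p = 0.0919) and without mut9 replicate 1 (0.61, adjusted p = 0.0822). With no replicate block, ADAMTS16 (0.71, adjusted p = 0.331), MMP3 (-1.75, adjusted p = 0.0627), ADAMTS18 (-2.12, adjusted p = 0.059) and MMP14 (-0.37, adjusted p = 0.143) were not called in mut9. ADAMTS16 (0.80, adjusted p = 0.0459) and ADAMTS18 also lost their calls without iEF replicate 1 or 3 or any mut9 replicate. RLE size factors (adjusted p = 0.0589) and another low-count filter (adjusted p = 0.0612) ended the ADAMTS16 call too. So did limma on the ComBat-adjusted values (0.71, adjusted p = 0.179).

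With the tyrosine-substituted full-length form (DAF), 5 members were lower than in iEF (MMP10, MMP13, MMP20, ADAMTS1 and ADAMTS20) and 4 higher (MMP9, ADAMTS4, ADAMTS14 and ADAMTS16), with 7.42% of all genes called, 3.41% higher and 4.02% lower. The median over the 41 was -0.20, against -0.0327 for all genes. The count of 9 fell to 5 without iEF replicate 3, DAF replicate 1 or DAF replicate 3. MMP9 was at 55.5, 248 and 85.5 CPM, the highest levels of this gene in any group (log2 fold change 4.02, SE 0.53, adjusted p = 6.13e-05). DAF replicate 2 stood above the other DAF libraries, and without it the log2 fold change was 3.51 with an adjusted p of 4.0e-04. ADAMTS14 was at 9.96, 12.3 and 10.4 CPM and ADAMTS4 at 128, 153 and 95.4 CPM, and each DAF library lay above each iEF library (log2 fold change 2.24, SE 0.36, adjusted p = 4.19e-04 for ADAMTS14 and 1.07, SE 0.20, adjusted p = 0.00184 for ADAMTS4). ADAMTS20 was at 0.109, 0.151 and 0.344 CPM, overlapping with iEF (log2 fold change -2.52, SE 0.60, adjusted p = 0.011), and its call was lost without iEF replicate 3 (-1.30, adjusted p = 0.252), DAF replicate 1 (-2.41, adjusted p = 0.056) or DAF replicate 3 (-2.65, adjusted p = 0.0607). With no replicate block, ADAMTS16 (1.05, adjusted p = 0.171), ADAMTS1 (-0.72, adjusted p = 0.121) and MMP10 (-1.49, adjusted p = 0.0615) were not called in DAF. MMP10 stood at -1.66 with all libraries, and without the high iEF replicate 3 it stood at -0.56, adjusted p = 0.464. Without that library ADAMTS1 (-0.64, adjusted p = 0.137) and MMP20 (-2.36, adjusted p = 0.0821) were not called either. All 3 of these calls were also lost without DAF replicate 1 or 3, and that of ADAMTS1 without iEF replicate 2 (-0.59, adjusted p = 0.158). ADAMTS16 lost its call without DAF replicate 3 (1.03, adjusted p = 0.0539). In limma on the ComBat-adjusted values neither ADAMTS16 (1.08, adjusted p = 0.051) nor ADAMTS1 (-0.64, adjusted p = 0.104) was called.

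**Figure D3:**
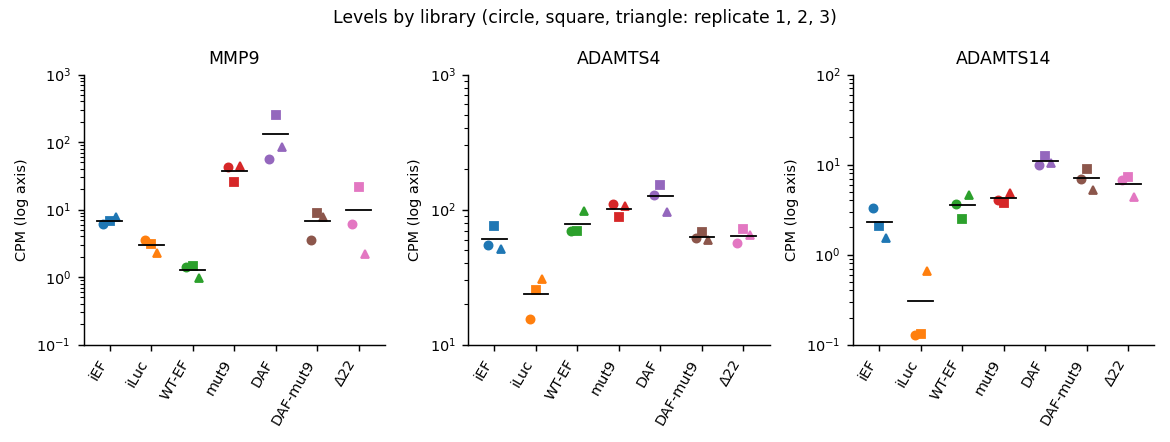
Each point is a library, on a log axis of CPM, for MMP9, ADAMTS4 and ADAMTS14 in the 7 groups, and each line is the mean of 3 libraries. The MMP9 levels of mut9 (25.3 to 44.7 CPM) and DAF (55.5 to 248 CPM) lie above all libraries of the other 5 groups.

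Against Δ22, which has no EWS portion, DAF was higher in 2 members, MMP9 and ADAMTS4, and lower in 0, with 0.972% of all genes called and 0.789% called higher. The members' median was -0.11, against -0.0188 for all genes. MMP9 was at 6.17, 21.6 and 2.22 CPM in Δ22, with a wide spread that stayed under the DAF libraries (log2 fold change 3.73, SE 0.52, adjusted p = 3.38e-04). ADAMTS4 was at 56.1, 72.3 and 64.5 CPM in Δ22 (log2 fold change 0.97, SE 0.20, adjusted p = 0.0151), and its call was lost when any of Δ22 replicates 1, 2 and 3 or DAF replicates 1 and 2 was left out, with log2 fold changes from 0.85 to 1.02.

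In DAF-mut9, 6 members were lower than in iEF and 3 higher, with 3.4% of all genes called, 1.26% higher and 2.14% lower. Over the members the median was -0.09, against -0.017 for all genes. The count of 9 fell to 1 without iEF replicate 3 and to 2, 3 and 4 without DAF-mut9 replicates 1, 2 and 3. ADAMTS20 was at 0.077, 0.0823 and 0.14 CPM (log2 fold change -3.46, SE 0.65, adjusted p = 0.00527), and lost its call without iEF replicate 3 (-2.27, adjusted p = 0.0825) or DAF-mut9 replicate 3 (-3.29, adjusted p = 0.0589). MMP8 was at 0.796, 0.851 and 0.977 CPM (log2 fold change -2.90, SE 0.72, adjusted p = 0.029) and MMP10 at 78.8, 125 and 97.9 CPM (log2 fold change -1.79, SE 0.46, adjusted p = 0.0361). Both lost their calls without iEF replicate 3, where the log2 fold changes were -2.64 and -0.64, and also without each of DAF-mut9 replicates 1, 2 and 3, where they ran from -3.06 to -2.56 and from -1.94 to -1.61. MMP8 lost its call without iEF replicate 1 as well (-2.17, adjusted p = 0.138), and MMP10 (-1.68, adjusted p = 0.0609), ADAMTS16 (0.96, adjusted p = 0.302) and MMP20 (-2.28, adjusted p = 0.0534) lost theirs with no replicate block. The ADAMTS16 call (1.05, adjusted p = 0.0308) was also lost without iEF replicate 1 or 3 or any DAF-mut9 replicate (0.86 to 1.12). Limma on the ComBat-adjusted values did not call it either (0.97, adjusted p = 0.135). MMP9 was at 3.6, 8.97 and 7.81 CPM, overlapping with iEF (log2 fold change -0.09, SE 0.50, adjusted p = 0.968).

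In the negative control Δ22, 2 members were lower than in iEF and 3 higher, with 2.67% of all genes called, 0.881% higher and 1.79% lower. Their median log2 fold change was -0.16, against -0.00243 for all genes. Left-out libraries moved the count of 5 to 8 (iEF replicate 2), 1 (iEF replicate 3), 3 (Δ22 replicate 1), 2 (Δ22 replicate 2) and 0 (Δ22 replicate 3). MMP19 was at 4.69, 5.18 and 4.34 CPM, under each iEF library (log2 fold change -1.60, SE 0.33, adjusted p = 0.0124). MMP13 was at 3.89, 2.54 and 1.41 CPM, overlapping with iEF (log2 fold change -1.46, SE 0.35, adjusted p = 0.027), and was not called with no replicate block (-1.40, adjusted p = 0.0707). ADAMTS14 was at 6.77, 7.22 and 4.42 CPM, above each iEF library (log2 fold change 1.41, SE 0.35, adjusted p = 0.0347). Without Δ22 replicate 3 these 3 values were -1.41, -1.25 and 1.63, with adjusted p-values of 0.12, 0.193 and 0.0552, and without iEF replicate 3 they were -1.14, -1.40 and 1.17, with adjusted p-values of 0.107, 0.103 and 0.201. MMP13 was not called either without iEF replicate 2 (-0.99) or Δ22 replicate 2 (-1.39), nor ADAMTS14 without iEF replicate 2 (1.34), Δ22 replicate 1 (1.34) or Δ22 replicate 2 (1.24). ADAMTS3 (1.08) and ADAMTS15 (1.26) were the other higher members, and ADAMTS3 was not called with no replicate block (1.06, adjusted p = 0.0572), without iEF replicate 2 (0.87, adjusted p = 0.0786) or without Δ22 replicate 3 (0.76, adjusted p = 0.221). Limma on the ComBat-adjusted values did not call ADAMTS3 either (0.96, adjusted p = 0.4). ADAMTS15 was not called without iEF replicate 1 (1.15, adjusted p = 0.0712), iEF replicate 3 (1.34, adjusted p = 0.0605) or any of Δ22 replicates 1, 2 and 3 (1.24 to 1.28).

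Forms of the fusion were then compared with each other, which does not use the iEF libraries as a baseline. DAF was higher than WT-EF in 22 members and lower in 0, with 24.9% of all genes called, 14.3% higher and 10.6% lower, and the members' median was 1.12, against -0.035 for all genes. MMP9 was at 1.42, 1.45 and 0.982 CPM in WT-EF, and the DAF libraries lay far above (log2 fold change 6.48, SE 0.62, adjusted p = 1.76e-07). MMP8 was at 1.53, 2.08 and 1.22 CPM in DAF (log2 fold change 3.89, SE 0.95, adjusted p = 0.00413) and ADAMTS6 at 21, 25 and 19.9 CPM (log2 fold change 2.72, SE 0.49, adjusted p = 2.87e-04), each without overlap with WT-EF. MMP1, MMP2 and MMP14 had log2 fold changes of 1.99 (SE 0.35), 0.16 (SE 0.20) and 1.20 (SE 0.12), of which that of MMP2 was not called (adjusted p = 0.628). MMP3 was not called with no replicate block (1.08, adjusted p = 0.226).

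Between mut9 and WT-EF, 7 members were higher in mut9 and 0 lower, with 6.15% of all genes called and 4.95% called higher, and the members' median was 0.58, against 0.0493 for all genes. MMP9 again differed most (log2 fold change 5.00, SE 0.59, adjusted p = 3.53e-05). ADAMTS9 was at 20.7, 9.18 and 39.6 CPM in mut9 and 7.23, 7.31 and 12.3 CPM in WT-EF, which overlapped (log2 fold change 1.31, SE 0.37, adjusted p = 0.0388). ADAMTS3 was at 7.12, 5.43 and 8.2 CPM and 3.87, 2.85 and 4.03 CPM, which did not (log2 fold change 0.95, SE 0.25, adjusted p = 0.0287). The count fell to 2, 2 and 3 without WT-EF replicates 1, 2 and 3 and to 2 and 4 without mut9 replicates 1 and 3. Any of these exclusions ended the calls of ADAMTS9 (log2 fold changes 0.86 to 1.41) and ADAMTS3 (0.86 to 0.97), as did the fit with no replicate block (1.37 and 0.95, adjusted p = 0.0605 and 0.0664), which also ended that of ADAMTS1 (0.87, adjusted p = 0.0656). In limma on the ComBat-adjusted values, ADAMTS9 (1.06, adjusted p = 0.25), ADAMTS3 (0.83, adjusted p = 0.374) and ADAMTS1 (0.72, adjusted p = 0.0679) were not called either.

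Between the shortened forms, DAF-mut9 was higher than mut9 in 10 members and lower in 2, with 9.83% of all genes called, 5.15% higher and 4.68% lower, and the members' median was 0.45, against -0.0441 for all genes. Without DAF-mut9 replicate 2 the count fell from 12 to 6. MMP9 was lower in DAF-mut9 (log2 fold change -2.63, SE 0.51, adjusted p = 0.00144), and its groups did not overlap. ADAMTS6 was at 24, 25.2 and 25.4 CPM in DAF-mut9, above each mut9 library (log2 fold change 1.75, SE 0.47, adjusted p = 0.0185), a call lost without mut9 replicate 2 (1.49), mut9 replicate 3 (1.78), DAF-mut9 replicate 1 (1.72) or DAF-mut9 replicate 2 (1.61). MMP1 was not called with no replicate block (1.14, adjusted p = 0.175).

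DAF and mut9 differed in 5 members, all lower in mut9, with 6.61% of all genes called, 3.13% higher and 3.48% lower, and the members' median was -0.44, against 0.0509 for all genes. These were ADAMTS1, ADAMTS6, ADAMTS14, MMP14 and TIMP3. The count was 3 without DAF replicate 2, mut9 replicate 1 or mut9 replicate 2. ADAMTS6 (-1.59, SE 0.47, adjusted p = 0.0452) was not called with no replicate block (-1.52, adjusted p = 0.0804) or without any 1 of DAF replicates 1 and 2 and mut9 replicates 1, 2 and 3 (-1.87 to -1.33). Limma on the ComBat-adjusted values did not call ADAMTS6 either (-1.74, adjusted p = 0.0656). ADAMTS14 (-1.37, SE 0.34, adjusted p = 0.0174) was not called without DAF replicate 2 (-1.24), mut9 replicate 1 (-1.33) or mut9 replicate 2 (-1.31). MMP9 was lower in each mut9 library than in each DAF library but was not called (log2 fold change -1.48, SE 0.48, adjusted p = 0.0747).

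The interaction compared the difference between DAF-mut9 and mut9 with that between DAF and WT-EF. The sets of tyrosines substituted in the long and in the short form are unlike. It was called for 3 members, all negative, with 3.33% of all genes called and 2.82% called negative, and the members' median was -0.62, against -0.0487 for all genes. MMP9 rose by 6.48 on the log2 scale from WT-EF to DAF and had a log2 fold change of -2.63 from mut9 to DAF-mut9, a difference of -9.11, SE 0.79, adjusted p = 1.68e-06. ADAMTS4 was at 69.4, 69.96 and 97.2 CPM in WT-EF and 62, 67.7 and 59.9 CPM in DAF-mut9, and its effects were 0.67 and -0.69, a difference of -1.36, SE 0.28, adjusted p = 0.00746. Taken alone, its effect from WT-EF to DAF was not called without WT-EF replicate 1 or 2 or DAF replicate 1 or 2. That from mut9 to DAF-mut9 was not called without mut9 replicate 1 or 3 or any of DAF-mut9 replicates 1, 2 and 3. For TIMP1 the effects were 1.12 and -0.06, a difference of -1.19, SE 0.28, adjusted p = 0.0193. The TIMP1 call was lost without any 1 of WT-EF replicates 1, 2 and 3, DAF replicate 2, mut9 replicate 1 and DAF-mut9 replicates 1 and 3 (-1.19 to -1.05, adjusted p from 0.0502 to 0.0936).

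**Figure D4:**
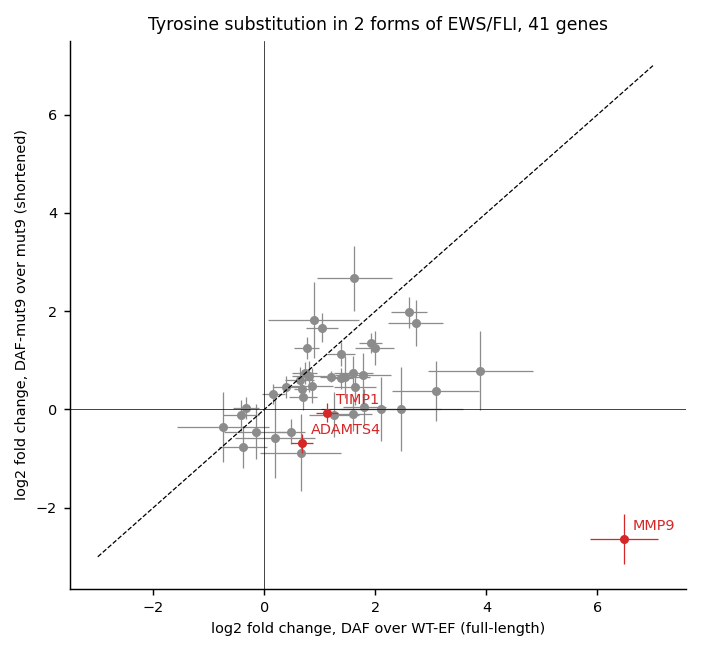
Each point is a member, with its log2 fold change from WT-EF to DAF on the x axis and from mut9 to DAF-mut9 on the y axis, bars of 1 SE and a dashed line of equal change. MMP9 lies apart at 6.48 and -2.63, and the 3 red points are the members whose 2 changes differed at an adjusted p under 0.05.

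Of the 4 inhibitors, TIMP1, TIMP2 and TIMP3 were lower in iLuc than in iEF. TIMP1 (ENSG00000102265, chrX:47441807-47446188, plus strand) was at 231, 123 and 193 CPM in iEF and at 63.1, 64 and 73.9 CPM in iLuc (log2 fold change -1.44, SE 0.20, adjusted p = 6.38e-06). TIMP2, which takes part in activation of MMP2 by MMP14, was at 141, 173 and 114 CPM and 30.1, 28.5 and 34.3 CPM (log2 fold change -2.20, SE 0.14, adjusted p = 1.02e-10). TIMP3, which is held in the matrix and also inhibits ADAMTS4 and ADAMTS5, was at 35.8, 172 and 78.2 CPM and 33.9, 34.5 and 34.5 CPM (log2 fold change -1.19, SE 0.31, adjusted p = 0.00423). The iEF and iLuc libraries did not overlap for these 3 genes, but for TIMP3 the gap to iEF replicate 1 was small, and without the high iEF replicate 2 its call was lost (-0.70, adjusted p = 0.0573). TIMP4 was at 5.09, 3.29 and 3.62 CPM and 4.34, 2.36 and 3.78 CPM, overlapping (log2 fold change -0.20, SE 0.24, adjusted p = 0.544).

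Under WT-EF, TIMP1 was at 86.7, 74.4 and 71.8 CPM (log2 fold change -1.24, SE 0.20, adjusted p = 6.86e-05) and TIMP2 at 102, 93 and 106 CPM (log2 fold change -0.50, SE 0.14, adjusted p = 0.00803), both below each iEF library. The TIMP2 call was lost without iEF replicate 2 (-0.34, adjusted p = 0.0789) and without WT-EF replicate 2 (-0.40, adjusted p = 0.0755). TIMP3 was at 8.17, 12.1 and 18.2 CPM, below iEF (log2 fold change -2.75, SE 0.33, adjusted p = 1.89e-06) and also below iLuc (log2 fold change -1.56, SE 0.32, adjusted p = 0.00141). The latter call was lost with no replicate block (-1.42, adjusted p = 0.0683). TIMP2 was higher in WT-EF than in iLuc (log2 fold change 1.70, SE 0.14, adjusted p = 2.85e-08), and TIMP1 was not called there (log2 fold change 0.19, SE 0.20, adjusted p = 0.583). TIMP4 was at 6.97, 4.02 and 5.85 CPM and was called higher than in iLuc (log2 fold change 0.68, SE 0.23, adjusted p = 0.0467), a call lost with no replicate block (0.68, adjusted p = 0.105), with RLE size factors (0.68, adjusted p = 0.0506) and without iLuc replicate 1 or 2 or WT-EF replicate 1 or 3 (0.54 to 0.76).

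Of the TIMPs, TIMP3 was the 1 called in mut9 against iEF. It was at 12.8, 28.6 and 29.2 CPM in mut9, below each iEF library (log2 fold change -1.92, SE 0.32, adjusted p = 2.15e-04), and at 39.7, 127 and 81.2 CPM in DAF, within the iEF range (log2 fold change -0.15, SE 0.30, adjusted p = 0.865). It was lower in mut9 than in DAF (log2 fold change -1.77, SE 0.32, adjusted p = 0.00134) and higher in DAF-mut9, at 52, 121 and 105 CPM, than in mut9 (log2 fold change 1.98, SE 0.32, adjusted p = 2.13e-04). In Δ22 it was at 43, 108 and 171 CPM (log2 fold change 0.21, SE 0.31, adjusted p = 0.845). DAF was also higher than WT-EF in TIMP1 (1.12, SE 0.20, adjusted p = 2.43e-04), TIMP2 (0.68, SE 0.14, adjusted p = 7.96e-04) and TIMP3 (2.60, SE 0.33, adjusted p = 4.78e-06). TIMP1 was at 154, 141 and 103 CPM in mut9, which was higher than in WT-EF (log2 fold change 0.76, SE 0.20, adjusted p = 0.0242), a call lost without any of WT-EF replicates 1, 2 and 3 or mut9 replicates 1 and 2 (0.66 to 0.78). No TIMP was called in DAF, DAF-mut9 or Δ22 against iEF, where the log2 fold changes of TIMP1 were -0.12, -0.54 and -0.42 and those of TIMP2 were 0.18, 0.32 and 0.16.

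**Figure D5:**
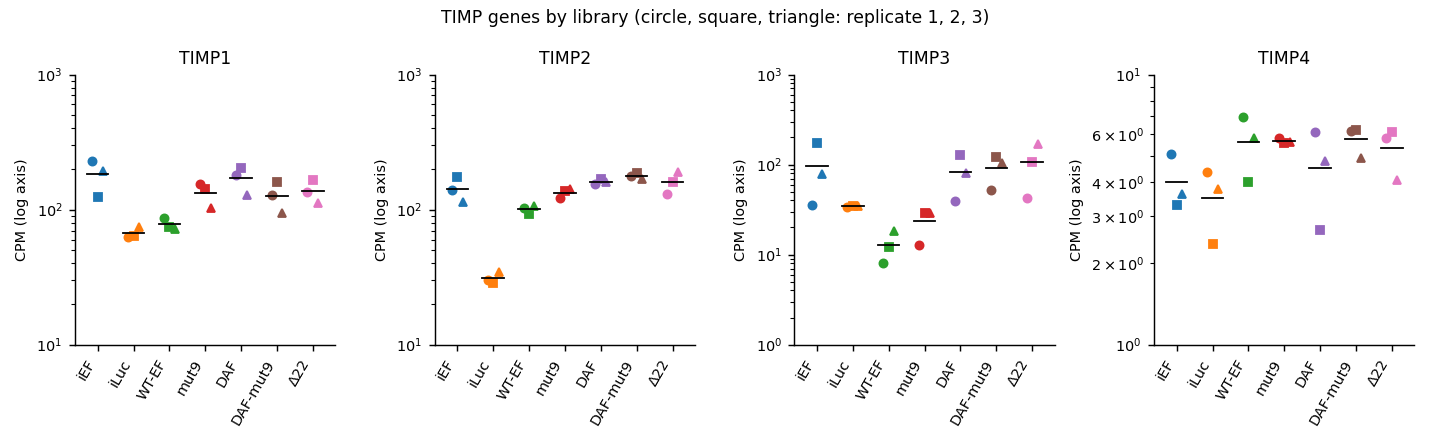
Each point is a library, on a log axis of CPM, for the 4 TIMP genes in the 7 groups, and each line is the mean of 3 libraries. TIMP3 is lowest in WT-EF (8.17 to 18.2 CPM), the means of TIMP1 and TIMP2 are lowest in iLuc, and TIMP4 stays between 2.36 and 6.97 CPM in all libraries.

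Other genes of the pathway were read from 5 lists. Of 18 genes for ADAM proteases and ADAMTS-like proteins, 13 were lower and 2 higher in iLuc than in iEF, where 22.4% of all genes were lower and 18.7% higher. ADAM12 (log2 fold change -6.96, SE 0.34, adjusted p = 1.81e-12) and ADAM19 (-5.44, SE 0.29, adjusted p = 4.46e-12) fell most, and ADAM22 (1.79, SE 0.16, adjusted p = 8.87e-09) and ADAM28 (0.93, SE 0.27, adjusted p = 0.00813) rose. Plasminogen activation, which produces plasmin that can activate MMP precursors, had 6 of 7 tested genes lower and 0 higher. Among them were PLAT, the tissue-type activator (log2 fold change -6.35, SE 0.39, adjusted p = 4.54e-11), and SERPINB2, an inhibitor of the activators (-5.83, SE 0.53, adjusted p = 1.56e-08).

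Of 12 tested regulators of the proteases, 9 were lower and 0 higher. They included CD44, a cell-surface receptor that can hold MMPs (log2 fold change -7.12, SE 0.31, adjusted p = 4.27e-13), and THBS1, a matrix glycoprotein (-6.40, SE 0.18, adjusted p = 2.89e-15). RECK, a membrane-anchored inhibitor of MMPs, was not called (-0.09, SE 0.14, adjusted p = 0.653). Among 10 substrate genes of the ADAMTS enzymes, 7 were lower and 1 higher. Versican (VCAN) and aggrecan (ACAN) fell (log2 fold change -5.71, SE 0.35, adjusted p = 4.11e-11 and -4.60, SE 0.78, adjusted p = 6.21e-05), and decorin (DCN) rose (2.12, SE 0.51, adjusted p = 0.00201). Of 7 AP-1 subunit genes, 4 were lower and 0 higher, with FOSL1 (-4.34, SE 0.18, adjusted p = 3.02e-13) and FOSL2 (-4.13, SE 0.25, adjusted p = 2.89e-11) leading.

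The same lists were read in the cells with a cDNA, against the same iEF libraries. Of all genes, 16.9% were lower and 11.4% higher in WT-EF, 8.33% and 6.22% in mut9, 4.02% and 3.41% in DAF, 2.14% and 1.26% in DAF-mut9 and 1.79% and 0.881% in Δ22, so the share over all genes fell in this order as well. Of the 18 ADAM and ADAMTS-like genes, 12 were lower and 1 higher in WT-EF, 7 were lower and 1 higher in mut9, 4 were lower and 0 higher in DAF, 1 was lower and 0 higher in DAF-mut9 and 1 was lower and 0 higher in Δ22. Of the 7 plasminogen activation genes, 7 were lower and 0 higher in WT-EF, 5 were lower and 0 higher in mut9, 3 were lower and 0 higher in DAF, 1 was lower and 0 higher in DAF-mut9 and 1 was lower and 0 higher in Δ22. Of the 12 regulators, 9 were lower and 1 higher in WT-EF, 3 were lower and 1 higher in mut9, 1 was lower and 3 higher in DAF, 0 were lower and 2 higher in DAF-mut9 and 0 were lower and 2 higher in Δ22. Of the 10 substrate genes, 7 were lower and 1 higher in WT-EF, 5 were lower and 1 higher in mut9, 2 were lower and 1 higher in DAF, 2 were lower and 1 higher in DAF-mut9 and 3 were lower and 0 higher in Δ22. Of the 7 AP-1 subunit genes, 4 were lower and 0 higher in WT-EF, 3 were lower and 0 higher in mut9, 1 was lower and 0 higher in DAF, 0 were lower and 0 higher in DAF-mut9 and 1 was lower and 0 higher in Δ22. FOSL1 had log2 fold changes of -2.54 in WT-EF, -1.60 in mut9, -0.94 in DAF, -0.56 in DAF-mut9 and -0.69 in Δ22. PLAT had log2 fold changes of -4.02, -2.46, -0.78, -0.14 and 0.06 in the same order.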

How the data were processed

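Raw counts per Ensembl gene, deposited by the authors, were made from 150-base paired-end reads aligned to hg19 with STAR (release 2.5.1b in the submitters' processing notes, another in the study's methods) and counted by htseq-count (intersection-strict). Strand setting and annotation release are not given in the sources used here, and the 5 summary lines were blank. The authors also deposited a signal of ComBat-adjusted counts, used here only as an alternative, and a table of log2 fold changes, standard errors and adjusted p-values, which was not used. The deposited p-value and log2 columns were left out because they hold the authors' own comparisons.

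Groups and replicate numbers came from the labels. With edgeR 4.0.16 in R 4.3.3, TMM-normalized counts of 30549 of 57820 genes (averaging 1 or more counts over the libraries) were fitted to group and replicate set in all 21 libraries, with the quasi-likelihood test and Benjamini-Hochberg adjustment over all genes. The block was kept because the study's methods adjust for the replicate set. Deviations of same-set libraries from their group means correlated over 14250 genes with a median r of 0.158 (63 pairs, 42 above 0.1), so not every pair was above 0.1. For 126 pairs of different sets the median was -0.091. Centring each group on its own mean ties this value to that of the same-set pairs, so it is no separate evidence for the block. SE was taken from the fitted F. Levels are CPM. 13 comparisons were made. Scripts were tested on simulated counts.

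Members and lists were chosen with earlier results of these data known. Full values are given for up to 12 members by absolute log2 fold change called in endo-EF with at least 1 CPM in the higher group, for TIMP1 to TIMP4, and for up to 3 members called in each other comparison. Members beyond this rule were chosen after their values were seen. Gene names and coordinates come from GENCODE 44 as mapped to GRCh37. Alternatives were the normalization, the low-count filter, the block, the groups in the model, DESeq2 1.42.0, limma 3.58.1 on the ComBat values (32 of 41 members present) and leaving out each library.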

Additional observations from a re-analysis of the deposited data

Results flagged for a closer look

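The difference between DAF-mut9 and mut9 was unlike that between DAF and WT-EF for 3 members, by the interaction term of edgeR's quasi-likelihood test (adjusted by Benjamini-Hochberg). For MMP9 the difference was -9.11, SE 0.79, adjusted p = 1.68e-06, with every DAF library above every WT-EF library and every DAF-mut9 library below every mut9 library. The value ran from -9.53 to -8.53 over its alternatives and was called in each. ADAMTS4 differed by -1.36, SE 0.28, adjusted p = 0.00746 and was also called in each alternative. TIMP1 differed by -1.19, SE 0.28, adjusted p = 0.0193, a call that depended on single libraries as given above. MMP9 and ADAMTS4 counts were taken without a stated strand setting, and for MMP9 430 exon bases overlap SLC12A5-AS1, whose part in the difference was not tested.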

How the results depend on the processing

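Of 1364 alternative values of named genes, 92 kept the direction but lost the call, 16 gained it and 0 of the called values changed sign. The remaining 1256 were counted as unchanged, and any change of sign in a value that was not called falls among them. The counts of members called in endo-EF, WT-EF over iEF, WT-EF over iLuc and DAF over WT-EF stayed within 1.5 times the count given under every alternative. With at least a 2-fold change required, the counts were 13 for mut9, 2 for mut9 over WT-EF and 1 for DAF over Δ22. With no replicate block they were 3 for Δ22 and 4 for mut9 over WT-EF, and the other counts stayed within 1.5 times. With no low-count filter they were 19 for DAF, 18 for DAF-mut9, 14 for Δ22, 17 for mut9 over WT-EF, 11 for mut9 over DAF, 9 for DAF over Δ22 and 13 for the interaction. In that fit the adjusted p of the MMP9 interaction was 2.51e-274, far smaller than 3 libraries a group make plausible, so its counts are weak evidence. A model of the compared groups alone gave 19 for mut9 over WT-EF, 20 for DAF-mut9 over mut9, 8 for DAF over Δ22 and 7 for the interaction. DESeq2 gave 4 for DAF over Δ22 and 5 for the interaction. limma on the ComBat-adjusted values, which hold 32 members, gave 13 for mut9, 5 for DAF-mut9, 3 for Δ22, 4 for mut9 over WT-EF, 3 for mut9 over DAF and 5 for the interaction. The cause was not tested, and not every call lost in an alternative is listed above. Leaving out each library in turn gave 33 to 36 for endo-EF, 24 to 28 for WT-EF, 9 to 24 for mut9, 5 to 12 for DAF, 1 to 11 for DAF-mut9, 0 to 8 for Δ22, 15 to 19 for WT-EF over iLuc, 17 to 20 for DAF over WT-EF, 2 to 6 for mut9 over WT-EF, 6 to 11 for DAF-mut9 over mut9, 3 to 5 for mut9 over DAF, 1 to 2 for DAF over Δ22 and 2 to 4 for the interaction. With RLE size factors the log2 fold changes of the members shifted by a median of -0.0289 to 0.0283 over the comparisons. Depth limits the 8 members under 1 CPM in every group.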
